A study of Mus musculus with 14 samples.

Results

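Dorsal skin of wild-type C57BL/6 mouse embryos at E14.5 was compared with dorsal skin at E12.5 in the first of the 2 sequencing projects that the labels name. The comparison takes 2 of the 14 samples of the series, the skin sample titled E14.5 and the skin sample titled E12.5 of that project, and was defined by those titles and not by any measured value. Each age is 1 library of polyA-selected RNA from tissue frozen on dry ice, and the labels give no treatment. The labels do not say how many embryos a library holds or where the dissection ended. The same ages of the second project (samples titled ES12.5 and ES14.5, with the same labelled strain, genotype and tissue, 1 library each) are given beside the results. Skin at E9.5 and E10.5 of both projects gives earlier levels, and where 4 levels of a gene stand in a row they follow the order of age. The 6 libraries of the aorta-gonad-mesonephros region were not analysed here.

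Between these ages embryonic skin changes from a thin ectoderm over loose mesenchyme into a layered tissue. The surface epithelium, set up by the transcription factor p63, forms a basal layer that makes keratins 5 and 14 and sends cells upward into suprabasal layers that make keratins 1 and 10, under a temporary outer layer, the periderm. The layers are held together by desmosomes and later sealed by a cornified envelope and lipids. The dermis below lays down collagens, hair placodes and dermal condensates start to form, and melanoblasts, mast cells, nerves and vessels enter. Genes were therefore grouped by these roles, with further groups for tissues that border dorsal skin: cartilage, limb, muscle, nerve and blood.

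With 1 library per age there is no replicate and no test of age within the project. Levels are given as CPM, each gene's count scaled to a common library total over all genes. Ratios are of E14.5 to E12.5 CPM, or the inverse for genes lower at E14.5. A range in brackets after a ratio is its exact 95% interval, which covers counting error only and not the spread between embryos. A gene is called higher or lower where the library with more reads holds 20 counts or more and the ratio is 2 or more. In the first project, a gene under 20 counts at E12.5 can therefore never be called lower, and one under 20 at E14.5 never higher. A 0 count is replaced by 3 counts to form a ratio, which is then a set value and not an exact bound. In bulk tissue, fewer cells of a type and less RNA per cell cannot be told apart.

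The E12.5 library held 24003912 counts and the E14.5 library 22338224. Second-project totals were 6770338 and 15440012. Of 53465 genes, 15960 reached 20 counts in the first project. Of these, 2031 were 2-fold or more higher at E14.5 (12.7%) and 2214 lower (13.9%). The median log2 ratio over the 15960 genes was -0.12. At 4-fold the counts were 993 higher and 899 lower, at 10-fold 507 and 401, and at 100-fold 63 and 31. Close to the threshold, 212 higher genes lay between 2.0-fold and 2.2-fold, and 291 genes between 1.8-fold and 2.0-fold were just outside. Counting intervals included 2-fold for 1304 of the calls (30.7%).

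The 2 directions had different histories over the 4 ages. Of the 2031 higher genes, 1897 (93.4%) had their highest level of the 4 ages at E14.5, and 683 (33.6%) were under 1 CPM at each of the 3 earlier ages, against 5.85% of all genes with 20 counts. Of the 2214 lower genes, 1373 (62.0%) were highest at E12.5 and 660 (29.8%) at E10.5. At E14.5, 824 of the lower genes (37.2%) were under 1 CPM, against 8.03% of all genes with 20 counts. Since the calls themselves use 2 of the 4 ages, these shares describe the genes and test nothing.

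Promoter sequence is shown for 4 genes, 3 of which were among the higher epidermal genes and 1, Hoxd13, among the lower Hox genes. The stretches are the 100 bases before the RefSeq start site, 5′ to 3′ on the gene's strand, in GRCm38.p6. Capitals mark TATAAA, the only motif searched.
Krt5 (chr15:101712906-101713005, minus strand): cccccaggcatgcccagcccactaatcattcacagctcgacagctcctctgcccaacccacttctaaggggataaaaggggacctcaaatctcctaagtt
Krt10 (chr11:99389365-99389464, minus strand): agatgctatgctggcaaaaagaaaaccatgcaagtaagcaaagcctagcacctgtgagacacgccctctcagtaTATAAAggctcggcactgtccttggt
Krtdap (chr7:30787805-30787904, plus strand): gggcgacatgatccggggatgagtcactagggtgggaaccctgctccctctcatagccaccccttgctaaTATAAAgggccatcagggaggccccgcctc
Hoxd13 (chr2:74668125-74668224, plus strand): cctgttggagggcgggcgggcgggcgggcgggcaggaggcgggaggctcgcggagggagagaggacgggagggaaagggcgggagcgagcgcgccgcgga
The motif starts 26 bases before the start site in Krt10 and 30 bases before it in Krtdap. It does not occur in the printed stretches of Krt5 and Hoxd13. Nor does it occur in the same 100 bases of Krt14, Krt77, Tpbpa, Tpbpb, Prl3b1 and Psg21, all higher at E14.5 and not printed. Of the 15960 genes, 11711 had a promoter in the RefSeq table. TATAAA starting 40 to 20 bases upstream on the gene's strand was found in 197 of these (1.68%), in 60 of 1366 higher genes (4.39%), in 34 of 1528 lower genes (2.23%) and in 103 of 8817 genes within 2-fold (1.17%). Anywhere in the 250 bases upstream, on either strand, it was found in 8.35% of the 11711, 13.2% of higher and 10.2% of lower genes. Over all 20013 genes matched in the promoter table, with or without 20 counts, the shares were 13.5% in this window and 2.79% in the narrow one. Among the cornified envelope genes the promoters of 7 of 17 held it in the narrow window, and among the mast cell genes 3 of 9. Other lists lay between, with 2 of 9 suprabasal, 2 of 6 globin, 3 of 19 muscle contractile and 2 of 21 prolactin promoters. Dermal fibroblast genes had it in 1 of 16 and neuron genes, which were lower, in 1 of 11. These list counts include members under 20 counts. The same window held it in 0 of 7 basal keratinocyte, 0 of 7 periderm, 0 of 2 desmosome and 0 of 10 pregnancy-specific glycoprotein promoters, whose lists also held higher genes. Such a match is a description of letters and shows no use of the site.

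Epidermal genes had many of the largest ratios of the comparison. Of the 15 largest ratios higher at E14.5, those of Krt77, Krt4, Dmkn, Krtdap, Dsg1a, Dsc1, Krt1 and Asprv1 belong to suprabasal, periderm, desmosome or cornified envelope lists. The others were Pou2f3 (a POU-domain transcription factor of differentiating keratinocytes), Tpsb2 (a mast cell tryptase), Them5, Lipm, Serpinb5, Pla2g2f and Tpbpb. The plot of log2 ratios by list shows these lists at the top and the limb, Hox and nerve lists at the bottom.

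**Figure D1:**
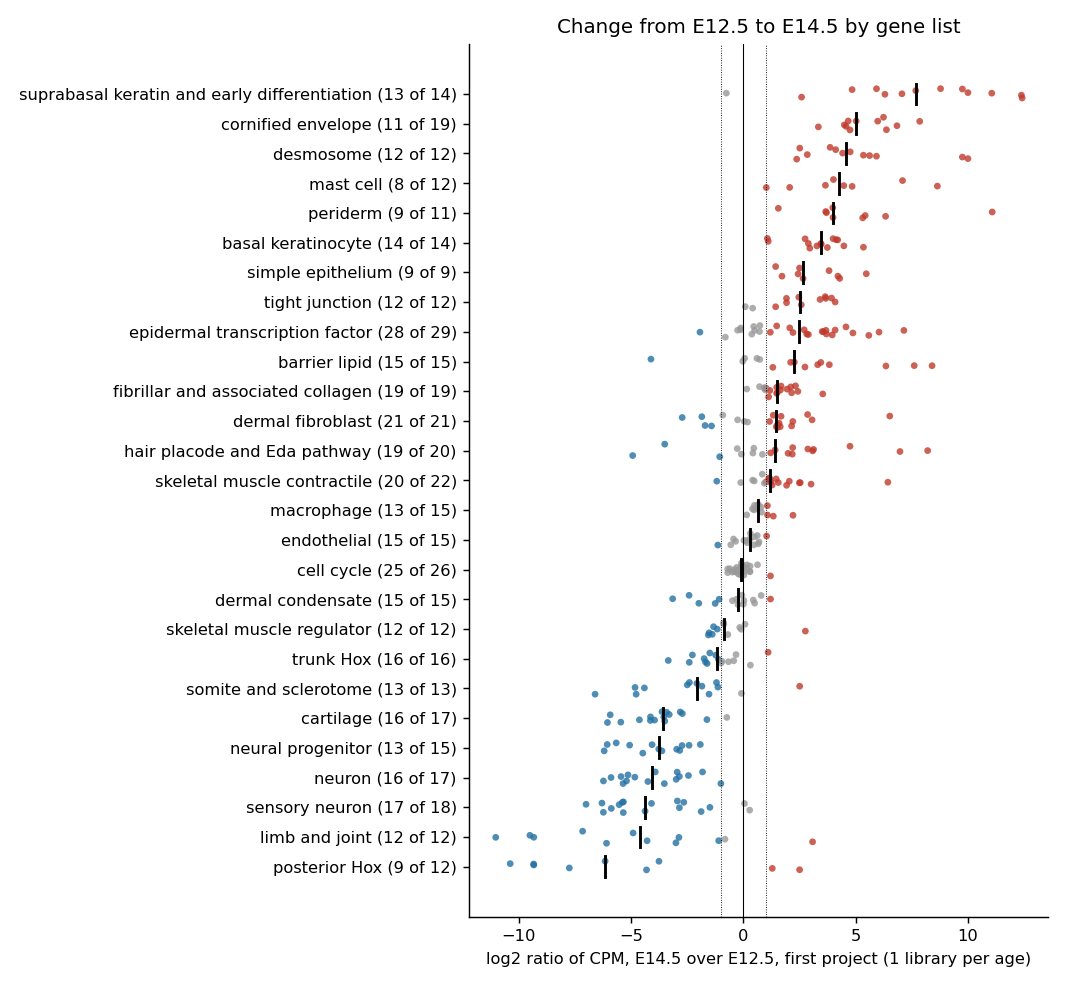
Log2 ratio of CPM at E14.5 over E12.5 (horizontal axis) for the members of 27 gene lists that reached 20 counts, 1 point per gene, first project, with the black bar at the list's median and dotted lines at 2-fold. The numbers in brackets are members that reached 20 counts of all members. Suprabasal genes have a median log2 ratio of 7.68 and posterior Hox genes of -6.16.

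All 14 basal keratinocyte genes were higher at E14.5, against 12.7% of all genes with 20 counts, with a median log2 ratio of 3.46. Krt5, the type II keratin of basal cells (chromosome 15, 101707070 to 101712891), stood at 3.36, 3.52, 93.7 and 1722 CPM from E9.5 to E14.5. That is a ratio of 18.4 (interval 17.6 to 19.2) over the last step, and Krt5 was already far above its E10.5 level at E12.5. Its partner Krt14 went from 34.3 to 459 CPM and Krt15 from 30.9 to 543 CPM. Trp63, which encodes p63, was at 10.6, 9.11, 33.4 and 248 CPM from E9.5 to E14.5, a ratio of 7.44 (6.9 to 8.02). Hemidesmosome and basement membrane genes, which anchor the basal layer, were higher too. Col17a1 was 15.9 times its E12.5 level, Itgb4 11 times, Lamb3 22.2 times, and Itga6, also made by other cells, 2.15 times. In the same libraries limb and joint genes summed to 682 CPM at E12.5 and 47.1 CPM at E14.5, neuron genes to 1918 and 304 CPM, and placental prolactins to 1.42 and 104 CPM. Their part in the epidermal ratios was not tested.

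Suprabasal genes showed the largest ratios of any list tabulated, with 12 of 14 higher, 1 within 2-fold (Gsta4), 1 that did not reach 20 counts (Krt2) and a median ratio of 205 over the 13 that reached 20 counts. Krt10, the type I keratin of suprabasal cells (chromosome 11, 99385254 to 99389364), was at 5.87, 5.33, 5.67 and 1161 CPM from E9.5 to E14.5. It was flat over the 3 earlier ages and 205 times higher (173 to 244) at E14.5. Krt1, its type II partner (chromosome 15, 101845428 to 101850786), was at 0.251, 0.572, 1.92 and 843 CPM from E9.5 to E14.5. Krt77, a further type II keratin, had 2 counts at E12.5 and 10161 at E14.5, a ratio of 5459 whose interval is 1511 to 45086 because so few reads stand at E12.5. Krtdap, a secreted protein of differentiating keratinocytes, had 1 count and then 4965, and Dmkn, another secreted keratinocyte protein, 5 and 9950. Calm4, a calmodulin-like protein, had no count at E12.5 and 16.7 CPM at E14.5, 134 times higher with 3 counts set for the 0. Fabp5, a fatty acid binding protein, had a smaller ratio of 6.02. Krt2, which marks later upper layers, had 2 counts at E12.5 and 6 at E14.5.

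Per kilobase of exon, which allows levels of different genes to be set side by side, the order of the keratins changed. At E12.5 Krt5 stood at 42.6 CPM per kilobase, Krt14 at 19.5, Krt15 at 17.5, Krt10 at 2.68 and Krt1 at 0.434. At E14.5 Krt5 was still highest of these at 784, followed by Krt10 at 549, Krt15 at 307, Krt14 at 261 and Krt1 at 191. Krt10 thus moved from the fourth place to the next after Krt5.

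**Figure D2:**
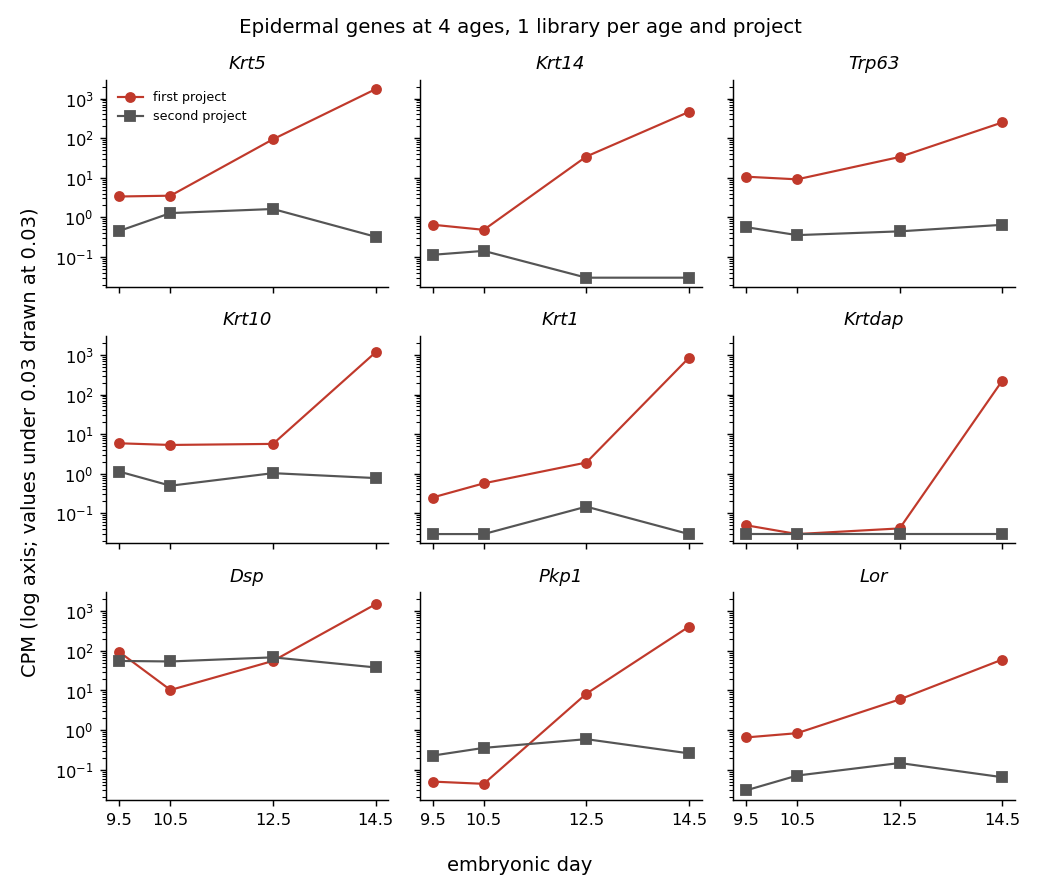
CPM on a log axis against embryonic day for 9 epidermal genes in the first project (red circles) and the second project (grey squares), 1 library per point, with values under 0.03 CPM drawn at 0.03. In the first project Krt10, Krt1 and Krtdap are highest at E14.5, and in the second project no such step is seen.

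Periderm genes were higher in 9 of 11 cases, and the other 2, Krt6b and Krt75, did not reach 20 counts. Krt4 had 3 counts at E12.5 and 6050 at E14.5 (271 CPM). Krt17 went from 9.79 to 155 CPM, a ratio of 15.8 (13.8 to 18.1), and Sfn, a 14-3-3 protein of stratified epithelia, from 10.6 to 168 CPM. Krt6a reached only 6.71 CPM. Genes of simple epithelia, which line single-layered surfaces, were higher in 9 of 9 cases with a median ratio of 6.31. Krt8 followed a different course from Krt5 over the 4 ages, with 29.7, 5.15, 2.58 and 50.5 CPM from E9.5 to E14.5. Krt18, its partner, was 49.3, 9.02, 9.29 and 50.3 CPM from E9.5 to E14.5. Both were higher at E9.5 than at E10.5 and E12.5. Cdh1, the epithelial cadherin, went from 26.6 to 493 CPM, a ratio of 18.5.

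Cornified envelope genes were called in 11 of 19 cases, all higher, and 8 did not reach 20 counts. Over all genes with 20 counts, 12.7% were higher. At E12.5 the 19 genes summed to 35.3 CPM and 6 had no count, which left little room for a lower call. Genes of the scaffold were the most abundant. Ppl (periplakin) was at 13 CPM at E12.5 and 423 CPM at E14.5, Evpl (envoplakin) at 298 CPM at E14.5, 23.8 times its E12.5 level, and Asprv1, the protease that trims profilaggrin, at 0.458 CPM at E12.5 and 106 CPM at E14.5. Lor, which encodes the main late envelope protein loricrin, was at 0.652, 0.836, 5.96 and 60.3 CPM from E9.5 to E14.5 and so was detectable before E14.5. The crosslinking enzymes Tgm1 and Tgm3 had ratios of 25.4 (19.3 to 34.1) and 115 (57.9 to 266), while Tgm5 had 2 counts. Products of the last stage of cornification were at or near 0. Flg had 2 counts at E12.5 and 0 at E14.5, Lce1a1 and Sprr2d had no count at either age, and Flg2 and Rptn had 5 and 1 at E14.5. A count of 0 does not exclude a low level. Ivl (involucrin) was higher but low, with 1 count at E12.5 and 21 at E14.5.

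Barrier lipid genes were split. Of 15, 10 were higher, 1 was lower and 4 were within 2-fold. Abca12, the lipid transporter of lamellar granules, went from 1.17 to 95 CPM, a ratio of 81.4 (56.2 to 123). Elovl4, which elongates very long fatty acids, had a ratio of 4.82 and Cers3, a ceramide synthase, of 14.2. Pnpla1 had 1 count and then 315. Ugcg, a lipid gene with roles in many tissues, moved little, with a ratio of 1.04. Smpd3, a sphingomyelinase also made in cartilage and nerve, was 17.4 times lower (11.9 to 26.2). The lipoxygenases Alox12b and Aloxe3 were called higher at 1.25 and 1.34 CPM.

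All 12 desmosome genes were higher, with a median log2 ratio of 4.59. The differentiation-specific cadherins had almost no reads at E12.5. Dsg1a had 3 counts and then 2859, and Dsc1 had none and then 2409. The Dsc1 ratio was 863 with 3 counts set in place of none, a set value and not an exact bound. Reads of Dsg1a may be shared with its near-identical neighbours, so its own level is uncertain. Dsg3, the basal desmoglein, was at 3.37 CPM at E12.5 and 72.2 CPM at E14.5, a ratio of 21.4, and Dsg2, found in simple epithelia too, had the smaller ratio of 7.19. Among plaque proteins, Pkp1 went from 8.29 to 408 CPM (49.2-fold), Dsp from 55.7 to 1505 CPM (27-fold) and Jup, which also serves adherens junctions, from 98.9 to 564 CPM (5.7-fold). Per kilobase of exon at E14.5 Perp stood at 531, Dsp at 156, Jup at 87.6 and Pkp1 at 81.2, while the cadherins lay lower, from 8.55 for Dsg2 to 43.6 for Dsc3. Tight junction genes followed, with 10 of 12 higher. Cldn1, needed for the water barrier, went from 7.87 to 98.5 CPM, and Cldn4 from 9.58 to 122 CPM. The scaffold gene Tjp1 was within 2-fold.

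Of 29 epidermal transcription factors, 18 were higher, 1 was lower, 9 were within 2-fold and Ehf did not reach 20 counts. Zfp750, a p63 target that drives late differentiation, went from 2.62 to 126 CPM, a ratio of 48 (37.4 to 62.7). Ovol1 went from 0.292 to 19.2 CPM and Grhl1 from 2.75 to 80.9 CPM. Grhl3, needed for barrier formation, went from 8.62 to 112 CPM and Gata3 from 4.79 to 114 CPM. Klf4, which marks the upper layers, had a ratio of 4.18 from a level of 40.4 CPM. Msx2 was 3.82 times lower (3.24 to 4.53). Ets1 and Maf were within 2-fold, and both are also expressed outside the epidermis.

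A family of epidermal serpins, protease inhibitors of the clade B cluster, was picked out after values were seen. Of its 12 members, 10 were higher, against 12.7% of all genes with 20 counts, and 2 did not reach 20 counts. At E12.5 the 12 summed to 4.17 CPM and 6 had no count, so a lower call was hardly possible. Serpinb5 (maspin) had 4 counts and then 919. Serpinb12 went from 0.208 to 26.5 CPM, and Serpinb3a from no count to 11.2 CPM. Innate defence genes were higher in 10 of 15 cases, with S100a14 at 0.833 CPM at E12.5 and 145 CPM at E14.5 and Anxa1 at 7.17 CPM at E12.5 and 212 CPM at E14.5, while Slpi was lower at 2.12 and 0.358 CPM.

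Hair placode and ectodysplasin pathway genes were mixed, with 11 of 20 higher, 3 lower and 5 within 2-fold. Early placode signals were higher. Edar, the ectodysplasin receptor, was at 1.05, 0.352, 2.37 and 20.7 CPM from E9.5 to E14.5, a last-step ratio of 8.73 (6.62 to 11.7), and its adaptor Edaradd had a ratio of 4.58. The ligand Eda, 2.32 times higher, was far less changed. Wnt10b, an early placode marker, went from 7.92 to 57.9 CPM. Dkk4, a Wnt inhibitor made by placodes, had 1 count and then 275. Foxi3 had 1 and 117, and Fgf20, the placode signal to the dermis, 1 and 25, or 1.12 CPM. Shh, a later placode signal, was at 25.7, 16.9, 0.333 and 2.82 CPM from E9.5 to E14.5, with the early levels from before hair placodes form.

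The 3 lower genes of that list were Lhx2, Sox9 and Bmp2. Lhx2 was at 43.7 CPM at E12.5 and 1.43 CPM at E14.5, 30.5 times lower (21.5 to 44.8), Sox9 at 363 CPM at E12.5 and 32.1 CPM at E14.5, 11.3 times lower, and Bmp2 2.08 times lower. Sox9 is also the leading regulator of cartilage, and Lhx2 is made in limb bud, but the part of these tissues was not tested. Of 15 dermal condensate genes, 1 (Cdkn1a) was higher, 5 (Sox2, Bmp4, Gal, Foxd1 and Alpl) were lower and 9 were within 2-fold, including Ptch1 and Gli1, readouts of hedgehog signalling, at ratios of 1.18 and 1.23 in favour of E12.5. Sox2 was at 16 CPM at E12.5 and 3.0 CPM at E14.5.

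Dermal genes had smaller ratios at much higher levels. The 10 largest differences in CPM higher at E14.5 were those of Col1a1, Col3a1, Col1a2, Hbb-bs, Dlk1, H19, Krt5, Sparc, Postn and Dsp. Col1a1 (chromosome 11, 94936224 to 94953042), the main chain of fibrillar collagen I, was at 231, 118, 2363 and 10467 CPM from E9.5 to E14.5. Its last-step ratio was 4.43 (4.39 to 4.47). Col3a1 was at 575, 499.8, 3343 and 10693 CPM from E9.5 to E14.5, and Col1a2 at 2516 CPM at E12.5 and 7198 CPM at E14.5. Of the 19 collagens in the fibrillar and associated list, 14 were higher, none was lower and 5 were within 2-fold, with a median ratio of 2.80. With median-of-ratios size factors 16 were higher, adding Col5a2 (1.96) and Col8a1 (1.97), and with TMM 17, adding Col4a1 as well. The collagen VI chains had ratios of 5.0, 4.32 and 5.38 for Col6a1, Col6a2 and Col6a3, and Col5a3 of 11.6 from a low level. Basement membrane collagens differed from each other, with 1.89 for Col4a1, 1.65 for Col4a2, 2.03 for Col4a5, 3.85 for Col4a6 and 2.18 for Col18a1.

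Of 21 dermal fibroblast genes, 13 were higher, 4 lower and 4 within 2-fold. Dpt (dermatopontin), a late dermal matrix protein, had the largest ratio, 91.8 (68.7 to 126), from 1.92 to 176 CPM. Dcn went from 113 to 938 CPM, Lum had a ratio of 3.01 and Postn, a matrix protein of dermis, one of 4.6. Twist2, a dermal transcription factor, was 2.76 times higher, and Twist1, its relative, was level at 257 CPM at E12.5 and 264 CPM at E14.5. En1, which marks a dorsal dermal lineage, was level at 26.3 and 29.9 CPM. Pdgfra, a receptor found on fibroblasts and their precursors, stood at 725 CPM at E12.5 and 271 CPM at E14.5, 2.67 times lower, Ebf2 was 6.61 times lower, Dact1 3.61 times and Ebf1 3.26 times, and Prrx1 was within 2-fold at 701 and 371 CPM.

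Of 22 small proteoglycan and elastic fibre genes, 9 were higher and 2 lower. Eln (elastin) went from 64.3 to 273 CPM, Aspn from 25.2 to 178 CPM, Lox, which crosslinks collagen and elastin, from 221 to 755 CPM, and Mfap5 from 1.0 to 18.4 CPM. Fibrillin genes differed from each other. Fbn1, the fibrillin of mature tissue, was 2.33 times higher, and Fbn2, the embryonic form, was level at 602 CPM at E12.5 and 570.1 CPM at E14.5. Kera and Omd, of tendon, cornea and bone, were the lower ones, at ratios of 2.25 and 2.44.

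Mast cell genes were called higher in 8 of 12 cases, against 12.7% of all genes with 20 counts, with none lower and 4 under 20 counts. At E12.5, 4 of the 12 had no count and so could not be called lower. Cpa3, the mast cell carboxypeptidase, was at 0, 0, 6.42 and 184 CPM from E9.5 to E14.5. Its E14.5 to E12.5 ratio was 28.7 (24.4 to 33.9). Cma1, a chymase of connective tissue mast cells, went from 15 to 1899 counts and Tpsb2 from 3 to 1113. Hdc, which makes histamine, went from 2.46 to 54.5 CPM. The mucosal proteases Mcpt1 and Mcpt2 had 1 and 4 counts at E14.5, and Fcer1a had none. Kit and Gata2, which other cells also make, had the smallest ratios of the called members, 2.03 and 4.17.

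Genes of other immigrant cells had smaller ratios. Of 15 macrophage genes, 4 were higher and none lower, with 9 within 2-fold. Lyve1 went from 14.2 to 65.5 CPM, F13a1 from 35.7 to 90.1 CPM and Mrc1 from 46.4 to 97.6 CPM, while Csf1r, the receptor that defines the lineage, was at 0.903, 7.18, 31.6 and 50.2 CPM from E9.5 to E14.5, a last-step ratio of 1.59. Cx3cr1 was level at 22.2 and 24.5 CPM. T cell genes did not reach 20 counts (0 of 7). Of 13 melanoblast genes, 6 were higher and none lower. Dct went from 1.92 to 14.8 CPM, Pmel from 1.54 to 15.4 CPM and Tyr from 0.583 to 6.71 CPM, and Sox10, shared with glia, was within 2-fold at 30.1 and 21.4 CPM. Of 15 endothelial genes, 13 were within 2-fold, with ratios of 1.62 for Pecam1 and 1.13 for Cdh5, while 11715 of all 15960 genes with 20 counts were so too. Sox17 was higher and the arterial connexin Gja5 lower by a ratio of 2.2. In the wall of vessels the pericyte channel genes Abcc9 and Kcnj8 had ratios of 3.35 and 5.95, while Pdgfrb, Acta2 and Notch3 were within 2-fold.

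Red cell genes showed the switch from embryonic to adult globin. Hbb-bs (chromosome 7, 103826534 to 103828096), the more abundant adult beta gene, was at 5.07, 11.7, 39.1 and 3076 CPM from E9.5 to E14.5, a last-step ratio of 78.7 (73.8 to 84). The embryonic gene Hbb-bh1 was at 572, 1092, 80.7 and 23.2 CPM from E9.5 to E14.5, and Hbb-y, also embryonic, stayed high at 1479 CPM at E12.5 and 1939 CPM at E14.5. Of all beta-like globin counts, the adult genes Hbb-bs and Hbb-bt held 0.471% and 0.785% at the 2 earlier ages, 5.93% at E12.5 (Wilson 95% interval 5.70 to 6.17) and 69.3% at E14.5 (69.0 to 69.5). Of alpha-like counts, Hba-a1 and Hba-a2 held 7.04%, 8.04%, 22.5% (21.9 to 23.2) and 80.9% (80.5 to 81.2). Reads of Hba-a1 and Hba-a2, and of Hbb-bs and Hbb-bt, are nearly interchangeable, so the shares use sums and the level of Hbb-bs alone is uncertain. All 7 globins summed to 0.233% of counts at E12.5 and 0.839% at E14.5.

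**Figure D3:**
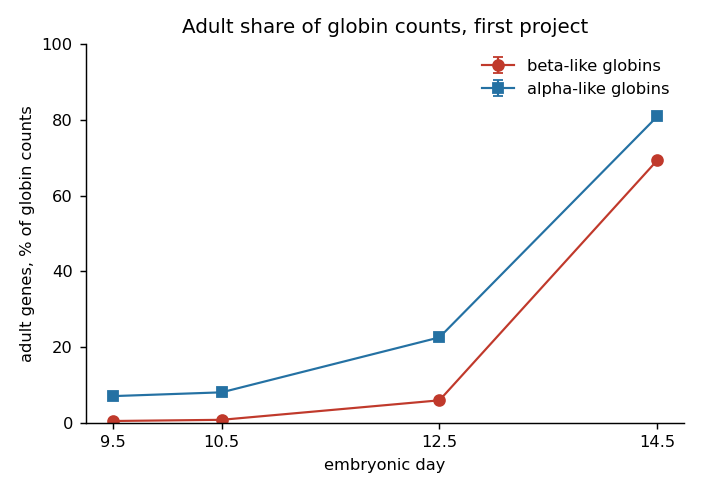
Adult genes as a percentage of beta-like (red circles) and alpha-like (blue squares) globin counts against embryonic day in the first project, 1 library per age, with Wilson 95% intervals mostly smaller than the symbols. The beta-like share is 5.93% at E12.5 and 69.3% at E14.5.

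Of 15 erythroid genes, 10 were higher and none lower. Alas2, the red cell enzyme of haem synthesis, went from 23.7 to 185 CPM. Gata1 was at 4.92, 7.44, 0.833 and 4.34 CPM from E9.5 to E14.5 and so was lowest at E12.5. Bcl11a, the repressor of embryonic globins that nerve cells also express, was within 2-fold, at 179 and 92.7 CPM.

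Of 22 skeletal muscle contractile genes, 14 were higher, 1 (Myh1) lower and 5 within 2-fold. Myh3, the embryonic myosin heavy chain, went from 542 to 1594 CPM, Myh8, the perinatal form, from 71.5 to 403 CPM, and Ckm, the creatine kinase of mature fibres, from 0.75 to 64.9 CPM (86.5-fold, interval 54.5 to 146). Of 12 muscle regulators, 1 was higher, 5 were lower and 6 were within 2-fold. Pax7, of muscle progenitors, was 2.61 times lower and Myod1 2.52 times lower at 83.1 CPM at E12.5 and 33 CPM at E14.5, and Myf6, a late regulator, was the higher gene at 0.542 and 3.67 CPM. The contractile genes summed to 2491 CPM at E12.5 and 6047 CPM at E14.5, and the part of muscle tissue in other results was not tested.

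Many genes of limb, cartilage, nerve and somite were lower at E14.5. Of the 15 largest ratios in that direction, Hoxd13, Hoxd12, Hoxd11, Hoxa13, Evx2, Hoxa11os, Lhx9, Gdf5 and Tbx5 are genes of limb and posterior body patterning, and Scrt2, Myt1, Pirt, Cntn2, Nhlh1 and Slc17a6 are genes of neurons. Of 12 limb and joint genes, 10 were lower, against 13.9% of all genes with 20 counts, 1 (Shh) higher and Grem1 within 2-fold. Their summed level in the first project was 224, 136, 682 and 47.1 CPM from E9.5 to E14.5. Tbx5, the forelimb T-box gene (chromosome 5, 119832668 to 119885219), was at 19.7, 0.044, 179 and 1.25 CPM from E9.5 to E14.5. Gdf5, which marks forming joints, had 783 counts at E12.5 and 1 at E14.5, a ratio of 729 with the wide interval 130.4 to 28817. Lhx9 had 2247 counts and then 1, and Msx1 went from 91.9 to 1.34 CPM. Defining limb markers are therefore present in the E12.5 library and at or near 0 in the E14.5 library. Dissection and age cannot be told apart here.

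In HoxD and HoxA the differences were larger toward the posterior end of the cluster. In HoxD, whose posterior genes pattern the digits and the genital bud, the log2 ratios were 1.10 for Hoxd8, -0.95 for Hoxd9, -4.31 for Hoxd10, -9.34 for Hoxd11, -9.34 for Hoxd12 and -10.39 for Hoxd13. Hoxd13 (chromosome 2, 74668310 to 74671599) was at 0.652, 0.088, 299.6 and 0.224 CPM from E9.5 to E14.5. It passed 1 CPM in the E12.5 library alone among the 4 first-project ages, with 7191 counts there and 5 at E14.5. In HoxA the log2 ratios were -1.50 for Hoxa7, -2.27 for Hoxa9, -3.76 for Hoxa10, -6.16 for Hoxa11 and -7.75 for Hoxa13. Hoxa11os lies antisense to Hoxa11, and since no source states whether counting used strand, their reads cannot be told apart.

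HoxC did not share that course. Hoxc10 was 5.67 times higher (4.14 to 7.92), from 1.96 to 11.1 CPM, Hoxc13, known from hair and nail, was higher at 1.08 and 2.64 CPM, and Hoxc8 and Hoxc9 were within 2-fold. In HoxB the largest difference was that of Hoxb9, at 212, 361, 144 and 14.1 CPM from E9.5 to E14.5, 10.2 times lower. Over all 41 Hox and Evx genes, 4 were higher (Hoxd8, Hoxc10 and Hoxc13 among them), 21 lower, 12 within 2-fold and 4 under 20 counts.

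**Figure D4:**
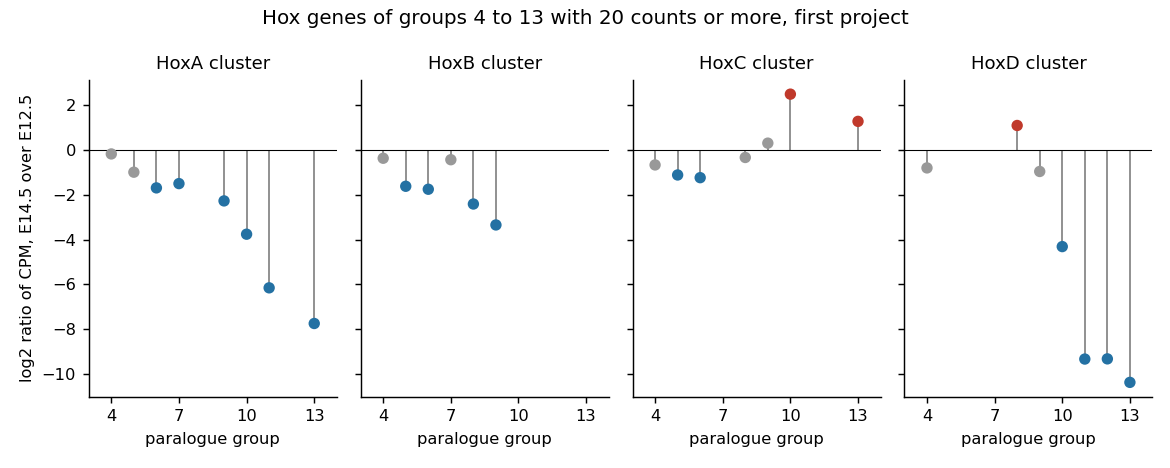
Log2 ratio of CPM at E14.5 over E12.5 (vertical axis) against paralogue group for the Hox genes of groups 4 to 13 with 20 counts or more, 1 panel per cluster, first project, 1 library per age. Ratios fall to -10.39 at Hoxd13 and to -7.75 at Hoxa13, while Hoxc10 lies above 0.

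Cartilage genes were lower in 15 of 16 members that reached 20 counts, and the other, Sox6, was within 2-fold. Col2a1, the main cartilage collagen, had the largest CPM difference of any gene lower at E14.5, at 326, 386, 1281 and 51.7 CPM from E9.5 to E14.5. It was 24.8 times lower (23.4 to 26.3). Matn4 went from 109 to 1.79 CPM, Col9a1 from 288 to 6.54 CPM and Acan, the cartilage proteoglycan, from 36.4 to 2.06 CPM. All 3 were highest of the 4 ages at E12.5. Of 8 bone genes, 5 were lower (3 with TMM) and none higher. Of 13 somite and sclerotome genes, 11 were lower, with Uncx at 13.1 CPM at E12.5 and 0.134 CPM at E14.5 and Foxc2 at 29.2 CPM at E12.5 and 1.03 CPM at E14.5, and 1 was higher, Tnmd, a marker of mature tendon, at 12.2 CPM at E12.5 and 69.2 CPM at E14.5.

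All 16 neuron genes that reached 20 counts were lower (15 with TMM or median-of-ratios size factors), all 13 neural progenitor genes that did so, and 15 of 17 sensory neuron genes. Of 12 Schwann and neural crest genes, 1 was higher, 2 were lower (1 with either of those scalings) and 9 were within 2-fold. Those counts are near the shares over all 15960 genes with 20 counts, of which 12.7% were higher, 13.9% lower and 11715 within 2-fold. Tubb3, the neuronal tubulin, was at 87.3, 520.4, 218 and 6.18 CPM from E9.5 to E14.5, a last-step ratio of 35.3 (29.8 to 42.1) in favour of E12.5, and Nefm, a neurofilament, at 71.8, 553, 309 and 7.52 CPM from E9.5 to E14.5. Both peaked at E10.5. Prph, the intermediate filament of peripheral neurons, was at 0.903, 7.88, 54.5 and 1.34 CPM from E9.5 to E14.5, highest at E12.5. Prdm12, needed for pain neurons, had 415 counts at E12.5 and none at E14.5, 129 times lower with 3 counts set for the 0. Neural tube genes were low at E12.5 already, with Pax6 at 118, 111, 3.29 and 0.0448 CPM from E9.5 to E14.5 and Sox1 at 91.8, 81.9, 3.0 and 0.0448 CPM from E9.5 to E14.5. Runx1 and Runx3, which other skin cells also make, were the 2 sensory list members within 2-fold. The neuron list summed to 1918 CPM at E12.5 and 304 CPM at E14.5, and what part nerve cell bodies in the E12.5 tissue had in other genes' ratios was not tested.

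Wnt genes went both ways. Of 31 ligands, receptors and antagonists, 13 were higher, 5 lower, 12 within 2-fold and Wnt1 did not reach 20 counts. Ligands of surface ectoderm were higher, with Wnt3 at 13.1 CPM at E12.5 and 78.3 CPM at E14.5, Wnt6 at 26.4 CPM at E12.5 and 146 CPM at E14.5, Wnt4 at 30.5 CPM at E12.5 and 128 CPM at E14.5 and Wnt7b at 37.3 CPM at E12.5 and 113 CPM at E14.5. The mesenchymal ligand Wnt5a was 2.76 times lower at 337 and 122 CPM, and the antagonists Sfrp1 and Frzb were 3.09 and 11.4 times lower. Axin2, a general target of the pathway, was level at 98.1 CPM at E12.5 and 94.7 CPM at E14.5. Of 29 Bmp and Fgf genes, 2 (Fgf20 among them) were higher, 9 lower and 18 within 2-fold. With TMM 4 were higher and 7 lower, and with median-of-ratios size factors 3 and 8. Bmp4 stood at 47.3 and 19.8 CPM, Gdf10 at 96.7 and 19.1, and Fgf10 was level at 21.2 and 21.1.

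Genes of early developmental timing summed to 1389 CPM at E12.5 and 681 CPM at E14.5, from 4679 CPM at E9.5. Lin28a, the inhibitor of let-7 maturation, was at 366, 84.6, 0.667 and 0.94 CPM from E9.5 to E14.5, and Lin28b was 3.44 times lower at E14.5 than at E12.5. Of 13 such genes, 6 were lower over the last step, among them Hmga2, a let-7 target, at 470.3 CPM at E12.5 and 71.6 CPM at E14.5 (6.57 times lower) and Mycn at 46.4 CPM at E12.5 and 9.54 CPM at E14.5. Of 26 cell cycle genes, 25 reached 20 counts and 24 were within 2-fold, as were 11715 of all 15960 genes with 20 counts. Mki67 was at 494 CPM at E12.5 and 764 CPM at E14.5 and Top2a at 677 CPM at E12.5 and 716 CPM at E14.5. The single higher member, Cdkn1a, encodes the inhibitor p21. Among imprinted growth genes Dlk1 was 3.12 times higher, Nnat 7.05 times lower and 11 of 13 within 2-fold.

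Gene families known from the placenta were higher in the E14.5 library, and were picked out after values were seen. Of 13 pregnancy-specific glycoprotein genes, 11 were higher, as were 11 of 25 placental prolactin genes and 8 of 10 genes of trophoblast-specific proteins and placental cathepsins. None of these families had a lower member, but a lower call needs 20 counts at E12.5. There 9 glycoprotein genes, 16 prolactin genes and 7 genes of the last group had no count, so such a call was hardly possible. Tpbpa, a spongiotrophoblast marker, was at 0.903, 0.088, 0.583 and 64 CPM from E9.5 to E14.5, and Tpbpb at 0, 0, 0.0417 and 28.5 CPM from E9.5 to E14.5. Prl3b1, a placental lactogen, went from 4 to 625 counts and Psg21 from none to 434. Members of each family are close copies, so single levels are uncertain. Prolactins summed to 1.42 CPM at E12.5 and 104 CPM at E14.5, glycoproteins to 0.25 and 87.5 CPM, and the third group to 0.667 and 118 CPM. In the second project these sums at E14.5 were 15.6, 5.38 and 0.0648 CPM. The part of placental transcripts in the other results was not tested. Of the endoderm and liver genes that reached 20 counts, 6 of 8 were higher and none lower, with Alb, the albumin gene, at 1.75 and 28 CPM. All 3 heart genes that reached 20 counts were higher, though the heart list summed to just 3.83 and 13.3 CPM. Of 7 kidney and gonad genes that reached 20 counts, 4 were lower and none higher.

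Of 9 heat shock and metallothionein genes, a family chosen after values were seen, 5 were higher at E14.5 and 4 within 2-fold, among them Dnajb1 at 75.7 and 126 CPM. The inducible heat shock genes Hspa1a and Hspa1b went from 0.583 to 65.9 CPM and from 3.54 to 166 CPM, and the metallothioneins Mt1 and Mt2 from 6.46 to 369 CPM and from 1.96 to 165 CPM. Hspa1a and Hspa1b share most of their sequence. Of 12 immediate early genes, 7 were higher and none lower, with Fos at 4.0 CPM at E12.5 and 70.1 CPM at E14.5, Egr1 at 21.2 CPM at E12.5 and 147 CPM at E14.5 and Jun within 2-fold. Mitochondrially encoded genes took 1.33% of counts at E12.5 and 0.771% at E14.5, and 4 of the 11 with 20 counts were lower. Of 85 ribosomal protein genes, 77 reached 20 counts, with a median log2 ratio of 0.58. Of these 77, 71 were within 2-fold, as were 11715 of all 15960 genes with 20 counts. The part of RNA quality and tissue handling in these values was not tested.

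The same step in the second project did not show the epidermal change. The second-project libraries carry the same tissue label but lack the markers of epidermis. Krt5 stood there at 0.453, 1.28, 1.62 and 0.324 CPM over the 4 ages, Krt14 at 0.113, 0.142, 0 and 0 CPM and Trp63 at 0.567, 0.356, 0.443 and 0.648 CPM. Krt10 was at 1.03 and Krt1 at 0.148 CPM at E12.5, and at 0.777 and 0 CPM at E14.5. Globins had 1 count in the E12.5 library and none at E14.5. Endothelial genes summed to 49.5 and 25.8 CPM, against 788 and 894 CPM in the first project. Dermal genes were present, with Col1a1 at 1615 and 2419 CPM and Dcn at 901 and 1212 CPM. Spp1 (osteopontin) was at 30009.6, 22229, 34966 and 26886 CPM there, and at 4.58 and 6.45 CPM in the first project.

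**Figure D5:**
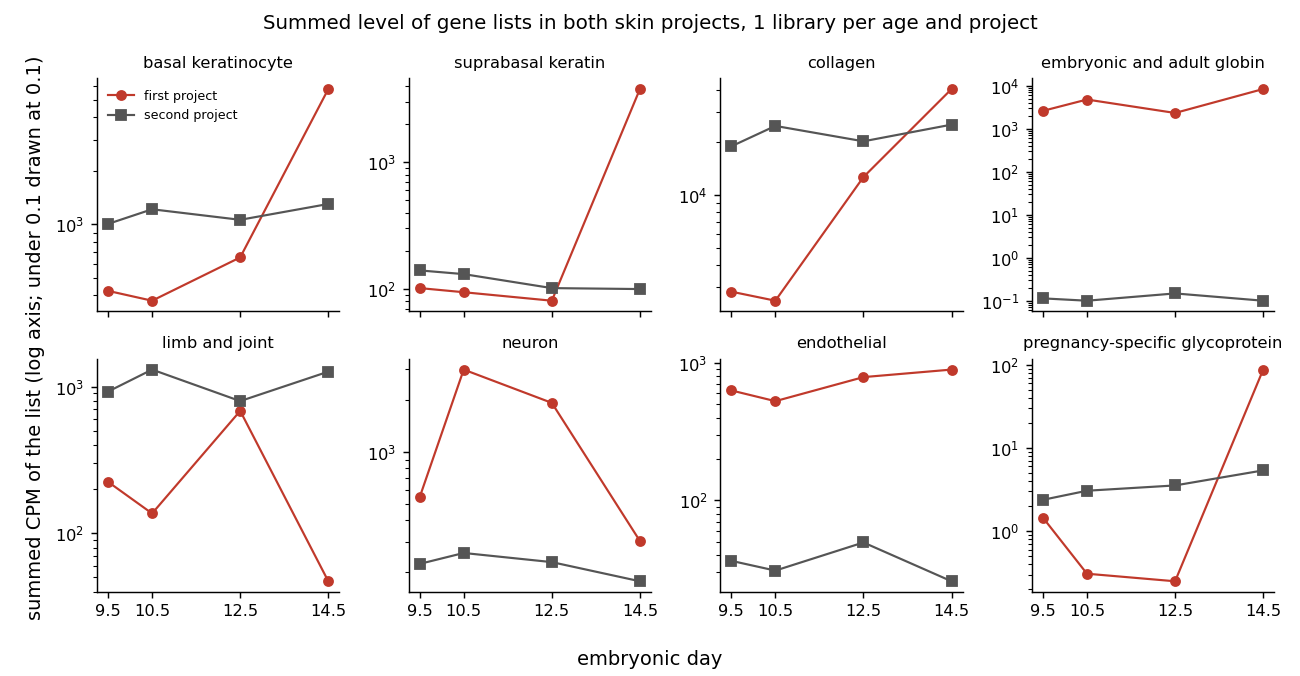
Summed CPM of 8 gene lists (log axis, under 0.1 drawn at 0.1) against embryonic day in the first project (red circles) and the second project (grey squares), 1 library per point. Suprabasal keratin genes go from 80.7 to 3787 CPM between E12.5 and E14.5 in the first project and from 101 to 99.7 CPM in the second. Second-project levels of the basal list are mostly Dst, Col7a1 and Itga6, and those of the limb list mostly Grem1.

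In the second project 13938 genes reached 20 counts, of which 600 were 2-fold or more higher at E14.5 (4.3%) and 1500 lower (10.8%). Of the 2031 genes higher in the first project, 1012 reached 20 counts in the second and could be called there. Of these 1012, 87 were higher in the second project too, 46 were lower and 879 were within 2-fold. Of the 2214 lower genes, 1107 reached 20 counts in the second project. Of these 1107, 113 were lower there too, 71 were higher and 923 were within 2-fold. The 87 shared genes are 4.28% of all 2031, and the 113 are 5.10% of all 2214 and 7.53% of the 1500. The shares of 4.28% and 5.10% count genes that could not be called in the second project. They are therefore not comparable with the 4.3% and 10.8% above. Of 14 basal keratinocyte genes, 7 reached 20 counts in the second project and 0 were called. Of the 19 listed collagens, 18 reached 20 counts and 0 were called, with a median log2 ratio of 0.34 against 1.49 in the first project. Posterior Hox genes were level, with 7 of 12 reaching 20 counts, 0 called and Hoxd13 at 16.1 and 20 CPM. Early timing genes had a negative median log2 ratio in both projects. Their summed level in the second project did not fall, at 1398 CPM at E12.5 and 1400 CPM at E14.5. Of 13, 11 reached 20 counts in the second, with 6 lower, 0 higher and 5 within 2-fold. Their median log2 ratio was -1.55 there and -0.95 in the first project.

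The only test that the design allows takes both projects together, with the 2 projects as the 2 libraries of an age. The projects differ in the markers given above, so the spread in this fit holds their difference. Counts of the 8 skin libraries, 2 per age, were fitted with edgeR's quasi-likelihood model, and 0 of 18968 genes had a Benjamini-Hochberg adjusted p under 0.05 for E14.5 against E12.5 (0.0% called). An unadjusted p under 0.05 was found for 38 genes. The coefficient of variation between the 2 libraries of an age was 106%. With the project as a term, 0 genes were called, 1000 had an unadjusted p under 0.05 and the coefficient of variation was 40.9%. DESeq2's Wald test called 4 genes, all lower at E14.5 (Neurod1, Olig3, Ppp1r17 and Prdm12, singled out by this test after values were seen), each with an adjusted p of 0.0103. Neurod1, Olig3 and Prdm12 had no count in the first-project E14.5 library or in either second-project library of these ages. The first-project ratios above are measurements of 2 libraries, whatever these fits call. Their difference from the ratios of the second project was not tested.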

How the data were processed

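RNA of dorsal skin was sequenced from polyA-selected libraries. The authors deposited raw read counts per gene in 1 table. Per the submitters' processing notes, featureCounts 1.6.0 and STAR 2.5.0a were used with GRCm38, beside DESeq2 1.20.0 and Trimmomatic 0.36, with their settings not stated. Columns were matched to samples by name, and 6 sample columns of another tissue were not used. Total counts of the 8 skin libraries ran from 6770338 to 24003912. CPM was computed over all 53465 genes, without scaling. Ratios carry exact conditional 95% intervals (scipy 1.17.1). Of the gene IDs, 53274 were in GENCODE M21, which gave exon lengths. Promoters came from RefSeq (GRCm38.p6).

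Named genes were the 15 largest ratios each way (5 CPM or more in the higher library, counts under 3 raised to 3, predicted genes left out), the 10 largest CPM differences each way, and members of 48 lists. List members with several IDs were left out. Some list members are not reported here by name. Members, lists and 9 added families were chosen with earlier results of these data known.

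The replicated fit used edgeR 4.0.16 in R 4.3.3 (filterByExpr by age, TMM, glmQLFit, glmQLFTest). The labels do not state that an age's libraries are from separate embryos, and p-values reflect just the spread between these libraries, which may be technical. Differences between the projects' libraries correlated at 0.765 to 0.946 between ages over 15907 genes, and the labels give the project, so project was used as the pairing block. On simulated counts differing by counting error, the 2-fold rule recovered 200 of 200 genes changed 4-fold and called 69 of 15061 unchanged genes (0.458%). Alternatives were other scalings, count minimums, a 4-fold threshold, DESeq2 and leaving out libraries.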

Additional observations from a re-analysis of the deposited data

Results flagged for a closer look

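Lists whose median moved 2-fold or more in a direction in the first project and 2-fold or more the other way in the second were looked for, with at least 5 members at 20 counts in each. Simple epithelium genes had a median log2 ratio of 2.66 in the first project (9 members, 9 higher) and -1.79 in the second (5 members, 4 lower). Krt8 went from 25.7 to 10.4 CPM and Esrp1 from 146 to 42.2 CPM in the second project, against 2.58 to 50.5 and 13.9 to 195 CPM in the first. Skeletal muscle contractile genes had a median of 1.2 in the first project (20 members) and -1.34 in the second (6 members), where Acta1 went from 104 to 33.2 CPM. With 1 library per age and project, these differences were not tested.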

How the results depend on the processing

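Scaling shifts every ratio alike, so it could move calls near the threshold and not reverse them. Of 686 tabulated genes with 20 counts, 462 were past 2-fold, 9 calls were lost and 7 gained with TMM-scaled sizes, 5 and 3 with median-of-ratios factors, and 0 and 0 with totals without globin and mitochondrially encoded genes. These shifted every log2 ratio by 0.09, 0.04 and 0.00. The imprinted gene median, near 0, changed sign with TMM, to 0.03. First-project counts of higher and lower genes became 4207 and 3421 with no minimum, 993 and 899 at 4-fold, and 1329 higher at a minimum of 100 counts. Second-project counts became 1254 and 4179 with no minimum, 247 and 712 at 100 counts, and 91 and 701 at 4-fold. The minimum and the threshold set how many genes can be called. Over both projects, DESeq2 called 4 genes and the edgeR alternatives 0, with or without the project as replicate block, with no filter, with only the 4 libraries of E12.5 and E14.5 (18 genes at an unadjusted p under 0.05), with the block on those 4 libraries (1053, a setting added after seeing the data), and without each of the 8 libraries (0 to 0 called, 21 to 304 genes at an unadjusted p under 0.05). In the pairing by project the block changed no call. Depth limits genes with few reads: below 20 counts no call was made, and second-project E12.5 had the fewest counts.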
